A study of Homo sapiens with 4 samples.

Results

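The genes described here are 44 DNA repair genes, chosen by name and found by gene symbol among the 60671 Ensembl genes of an RNA-seq table. All 44 were in the table. They belong to homologous recombination (10 genes), break sensing and checkpoint signalling (8 genes), the Fanconi anemia pathway (11 genes), non-homologous end joining (5 genes), single-strand break repair (3 genes), mismatch repair (4 genes) and the RecQ helicases (3 genes). The cells were H9, a human embryonic stem cell line, grown without treatment in mTeSR, a medium for undifferentiated stem cells. The 2 control libraries carry only the label "control", and the study describes both plain H9 cells and clones with an empty CRISPR/Cas9 vector as controls, so which of these was sequenced cannot be told from the labels. The 2 KO+OE libraries came from H9 cells with an edited CFIm25 gene and overexpression of 3Flag-CFIm25. CFIm25, encoded by NUDT21, is a subunit of cleavage factor Im, which helps to choose where a pre-mRNA is cleaved and polyadenylated. The comparison of KO+OE with control asks how far cells that were edited and then given CFIm25 back differ from cells that were never edited. As a model the KO+OE cells have limits. The labels call the edit both a KO and a KD, the study describes low amounts of a CFIm25 shortened at its N-terminus rather than its loss, the re-expressed protein came from a lentiviral vector, and the re-expression was made in 1 mutant clone. The edited cells without re-expression were not analysed here.

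Cells mend broken DNA by several routes. Homologous recombination copies the lost sequence from an intact sister chromatid, after the ends have been cut back, and is open once DNA has been replicated. Non-homologous end joining seals the ends directly, with the Ku ring as the first protein on the end. The Fanconi anemia proteins unhook crosslinks between the strands and pass the resulting break to recombination, and mismatch repair removes wrongly paired bases left by replication. Pluripotent stem cells divide fast, spend much of their cycle in S phase, and are known for strong use of recombination and for high amounts of many repair proteins.

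Levels are in TPM, which divides the reads of a gene by transcript length and then brings all libraries to the same total. Levels of genes of unlike length can then be set side by side, but neither step corrects for base composition. Each library had between 12179 and 12332 genes at 1 TPM or more, and mitochondrial genes took 20.96% to 22.05% of the summed TPM, with both KO+OE libraries above both controls. The values hold no counts, and the sequencing depth is therefore unknown. Of 9 markers of human embryonic stem cells, 9 averaged 1 TPM or more, and their summed level lay between 3425 and 3455 TPM. Of 12 markers of differentiated derivatives only GATA6 did, with a summed level of 6.44 to 9.97 TPM. Of 6 fibroblast markers only COL1A1 and COL1A2 did, with a summed level of 67.5 to 69.5 TPM. NUDT21 was at 156 ± 5.99 TPM in the controls and 159 ± 3.88 TPM in KO+OE (mean ± SD, n = 2 each, adjusted p = 0.980 by limma), and this total does not separate RNA of the edited gene from RNA of the vector. Nothing says that the 2 libraries of a group came from separate cultures, so p-values measure the spread between these libraries, which may be technical.

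The 44 genes spanned a 5878-fold range of mean level, from 0.075 TPM for LIG4 to 441 TPM for XRCC6. XRCC6 alone took 43.5% of their summed level, and 11 genes had a mean of 10 TPM or more, 17 lay between 1 and 10 TPM, and 16 lay under 1 TPM. The summed level of the 44 genes was 1012 and 1009 TPM in the control libraries and 1026 and 1008 TPM in the KO+OE libraries, and the groups overlapped. Every pathway except single-strand break repair held both genes at several TPM or more and genes under 1 TPM. BRCA2 and ATR, central to recombination and to checkpoint signalling, were among the lowest.

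**Figure D1:**
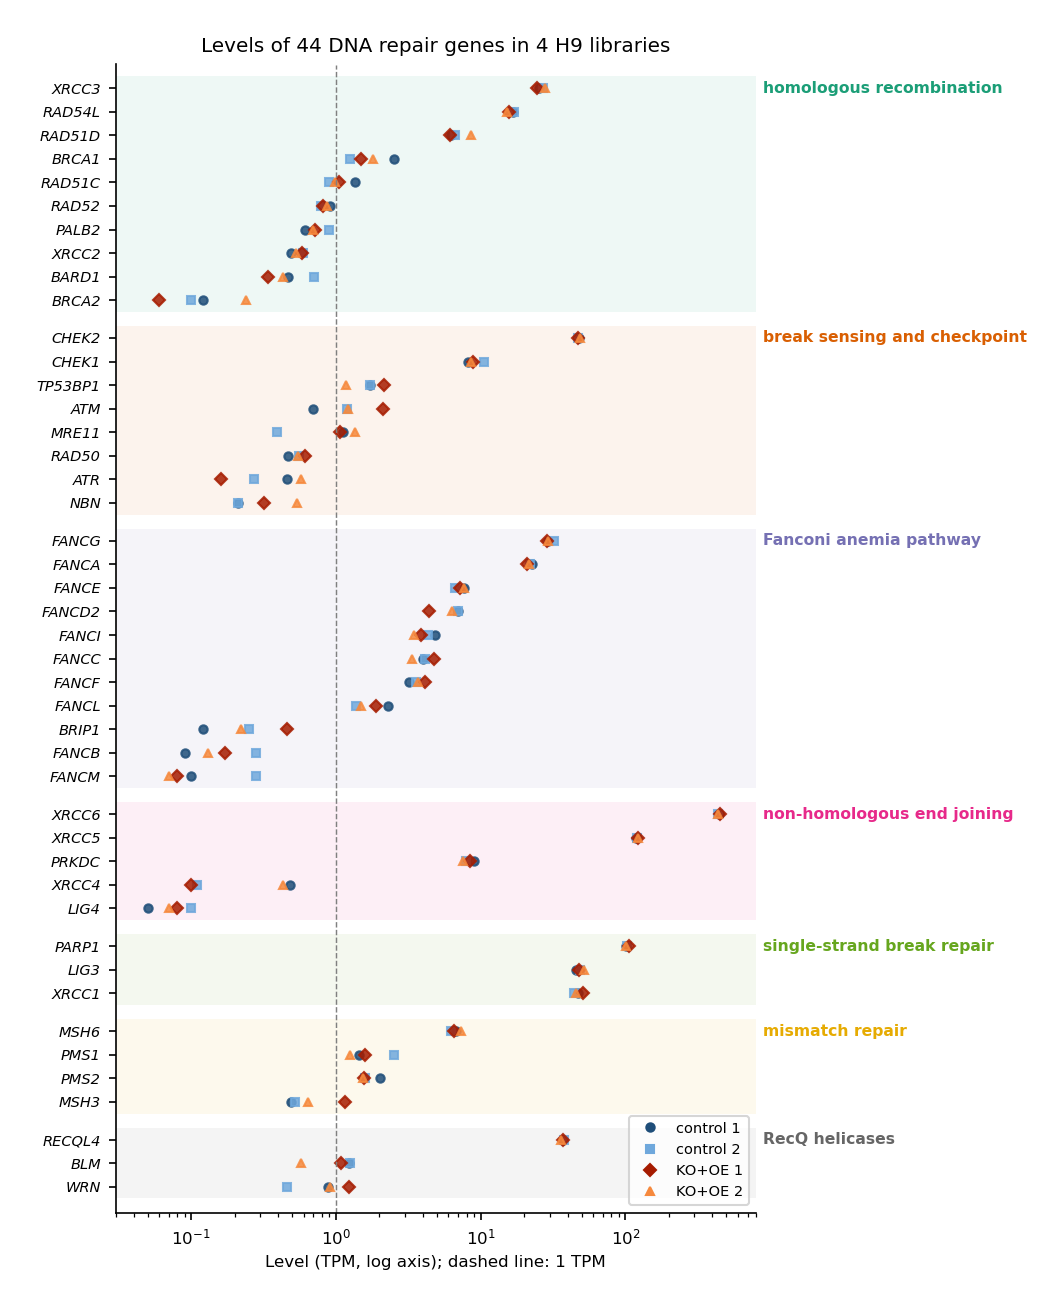
Level of each of the 44 repair genes in TPM on a log axis, with 1 point per library (2 control, 2 KO+OE) and genes grouped by pathway. The 4 points of a gene lie close together above 10 TPM and spread out under the dashed line at 1 TPM, where 16 genes lie, while genes of 1 pathway differ by up to the 5878-fold span between LIG4 and XRCC6.

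No repair gene differed between KO+OE and control by the test. The test took genes that averaged 1 TPM or more, which kept 28 of the 44, and 0 of these 28 had an adjusted p under 0.05 (limma on log2(TPM + 1), Benjamini-Hochberg over 12319 genes), where 0.00812% of all genes tested did. At an unadjusted p under 0.05 there were also 0 of 28, where 5.33% of all genes tested passed. The 28 adjusted p-values lay between 0.932 and 0.997, and the lowest unadjusted p was 0.104, for FANCI. In the fit 11 genes were above control and 17 below, with a median log2 fold change of −0.04, beside −0.01 for all genes tested. Both KO+OE libraries were above both controls for 3 of the 28 genes (ATM, FANCF and XRCC5), where 14.5% of all genes tested did so, and below them for 6 (FANCD2, FANCI, FANCA, RAD54L, BLM and PMS2), where 19.6% did so. For a single gene an exact permutation test of 2 against 2 libraries cannot go below p = 0.333.

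The intervals show which differences these libraries could have missed. For 27 of the 28 genes (96.4%) the 95% confidence interval of the fold change lay inside 2-fold in either direction, beside 92.6% of all genes tested, and for 20 of the 28 it lay inside 1.5-fold. The exception at 2-fold was ATM, with an interval of −0.22 to 1.11 on the log2 scale. The 11 genes at 10 TPM or more all had intervals inside 1.5-fold, against 9 of the 17 tested genes under 10 TPM. These fold changes are on the log2(TPM + 1) scale, which understates differences of low genes.

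**Figure D2:**
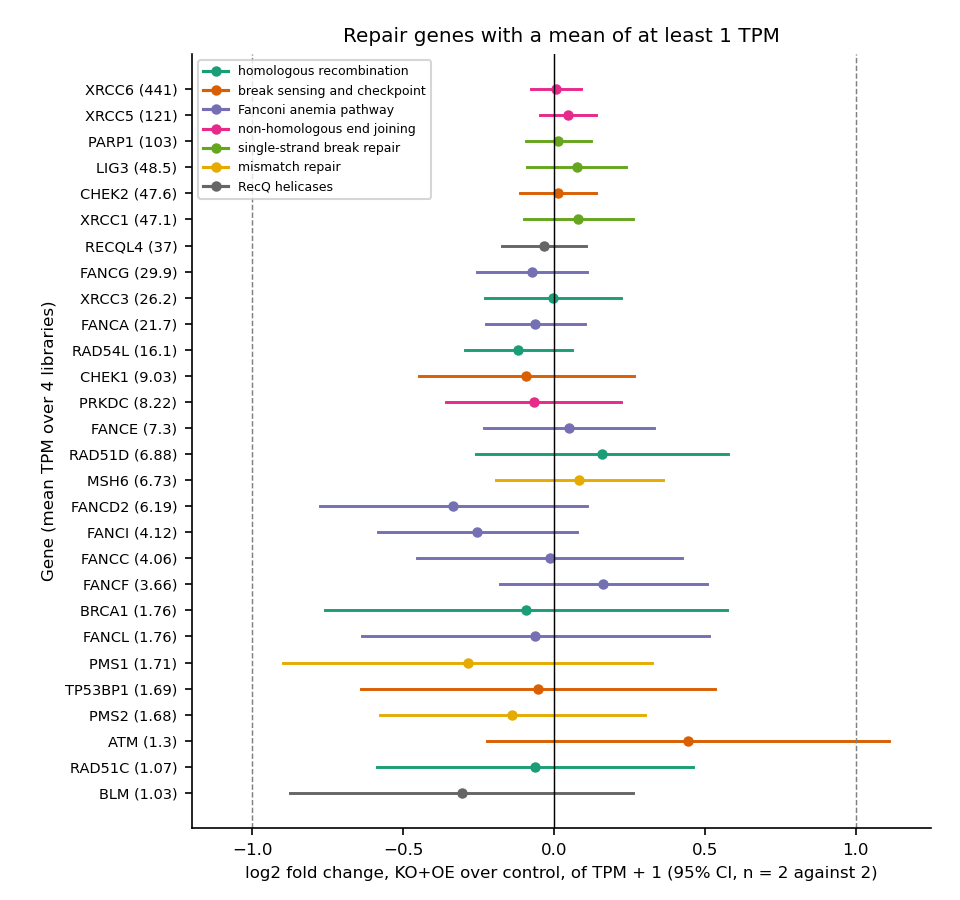
Log2 fold change of KO+OE over control on the log2(TPM + 1) scale with its 95% confidence interval for the 28 tested repair genes (n = 2 against 2), ordered by mean TPM and coloured by pathway. All 28 intervals hold 0; they are narrow for the high genes at the top, and only that of ATM, at 0.44, crosses 1.

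In non-homologous end joining the genes of the Ku ring were the highest of all 44. The listed genes of the ligation step, XRCC4 and LIG4, were under 1 TPM, with LIG4 the lowest of all. XRCC6 encodes Ku70 and XRCC5 encodes Ku80, the subunits that form the ring on the DNA end. XRCC6 was at 444.50 and 435.35 TPM in the controls and 449.44 and 434.10 TPM in KO+OE. XRCC5 was at 118.07 and 119.60 TPM in the controls and 122.96 and 122.43 TPM in KO+OE, with both KO+OE libraries slightly above both controls (log2 fold change 0.05, 95% CI −0.05 to 0.14, adjusted p = 0.948 by limma). The proteins pair in equal number, whereas the RNA of XRCC5 stood at 0.266 to 0.282 of the RNA of XRCC6 in the 4 libraries. PRKDC, the kinase that Ku recruits, was between 7.51 and 8.95 TPM with the groups overlapping. XRCC4, the scaffold of the final ligase, was at 0.48 and 0.11 TPM in the controls and 0.10 and 0.43 TPM in KO+OE, so the replicates of each group differed more than the groups. LIG4, the ligase itself, lay between 0.05 and 0.10 TPM. Of end joining genes outside the 44, NHEJ1 and PAXX had means of 19.5 and 50.3 TPM, and APLF and DCLRE1C of 1.75 and 0.15 TPM.

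The single-strand break repair genes were all high and even. PARP1, the sensor that marks nicks with poly(ADP-ribose), was at 101.59 and 102.57 TPM in the controls and 105.35 and 100.80 TPM in KO+OE. XRCC1, the scaffold that gathers the repair enzymes, was at 47.05 and 44.45 TPM in the controls and 50.97 and 45.94 TPM in KO+OE. LIG3, the ligase bound to XRCC1, was at 45.82 and 48.58 TPM in the controls and 47.81 and 51.74 TPM in KO+OE. The fitted change was above 0 for all 3 genes, at most 0.08 on the log2 scale, and the groups overlapped in each. The RNA of LIG3 and XRCC1 was near equal, with a ratio of 0.938 to 1.13.

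In homologous recombination the levels followed no single order of steps. XRCC3 and RAD51D, paralogues that help to load the recombinase on single-stranded DNA, had means of 26.2 and 6.88 TPM, while their partners were lower: RAD51C, which binds XRCC3, had a mean of 1.07 TPM, and XRCC2, which binds RAD51D, had a mean of 0.55 TPM. Within a library RAD51C was 0.0328 to 0.0538 of XRCC3, and RAD51D was 10.7 to 16.1 times XRCC2. RAD54L, the motor that helps the filament to pair with the intact copy, was at 16.65 and 16.91 TPM in the controls and 15.63 and 15.13 TPM in KO+OE, with no overlap and a log2 fold change of −0.12 (95% CI −0.30 to 0.06, adjusted p = 0.938 by limma). BRCA1, which promotes end resection and recruits the rest, was at 2.51 and 1.26 TPM in the controls and 1.48 and 1.81 TPM in KO+OE, so that the controls spanned the KO+OE values. BARD1, the partner of BRCA1 in a ubiquitin ligase, was at 0.47 and 0.71 TPM in the controls and 0.34 and 0.43 TPM in KO+OE. PALB2, the bridge from BRCA1 to BRCA2, lay between 0.61 and 0.89 TPM, and RAD52, an annealing protein, between 0.79 and 0.91 TPM. BRCA2, the protein that hands the recombinase to the DNA, was the lowest gene of the pathway, at 0.12 and 0.10 TPM in the controls and 0.06 and 0.24 TPM in KO+OE.

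Among the listed sensing and checkpoint genes the effector kinases, CHEK2 and CHEK1, were well above the others. The order covers the listed genes only. Among further repair genes, H2AX, MDC1 and RAD9A had means of 153, 27.5 and 18.0 TPM, and HUS1 and RAD17 had means of 2.50 and 1.05 TPM. CHEK2 was at 47.85 and 46.91 TPM in the controls and 47.09 and 48.63 TPM in KO+OE, and CHEK1 lay between 8.15 and 10.62 TPM. ATM, the kinase that activates CHEK2 at breaks, was at 0.69 and 1.20 TPM in the controls and 2.11 and 1.21 TPM in KO+OE. The groups did not overlap, by 0.01 TPM, and the log2 fold change of 0.44 was the highest of the 28 (adjusted p = 0.938 by limma). Leaving out KO+OE replicate 2 gave 0.69, and leaving out KO+OE replicate 1 gave 0.20. Leaving out control replicate 1 gave 0.25. The pseudocount also set its size, with 0.75 at a pseudocount of 0.1 and 0.16 at 5. ATR, the kinase that activates CHEK1, lay between 0.16 and 0.57 TPM, and both of these extremes were KO+OE libraries. The complex that first grips broken ends was low in each subunit: MRE11 was at 1.12 and 0.39 TPM in the controls and 1.07 and 1.36 TPM in KO+OE, RAD50 lay between 0.47 and 0.61 TPM, and NBN was at 0.21 TPM in both controls and at 0.32 and 0.54 TPM in KO+OE. TP53BP1, which shields ends from resection, was at 1.71 and 1.72 TPM in the controls and 2.14 and 1.18 TPM in KO+OE, above and below both controls.

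The Fanconi anemia genes fell into a set of well detected core subunits and a set near 0. FANCG and FANCA, which bind each other in the core complex, had means of 29.9 and 21.7 TPM, and their ratio kept to 1.29 to 1.48. FANCE, FANCC and FANCF, which form another module of the core, had means of 7.30, 4.06 and 3.66 TPM, and FANCL, the subunit that attaches ubiquitin, had a mean of 1.76 TPM. FANCB, which binds FANCL, was at 0.09 and 0.28 TPM in the controls and 0.17 and 0.13 TPM in KO+OE. FANCM, the translocase that anchors the core complex to DNA, was at 0.10 and 0.28 TPM in the controls and 0.08 and 0.07 TPM in KO+OE. BRIP1, a helicase that binds BRCA1, was at 0.12 and 0.25 TPM in the controls and 0.46 and 0.22 TPM in KO+OE.

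FANCD2 and FANCI, the paired proteins that the core complex marks with ubiquitin, had the lowest p-values of the 28. FANCD2 was at 7.01 and 6.94 TPM in the controls and 4.42 and 6.39 TPM in KO+OE. Both KO+OE values were below both controls, but they lay further from each other than the higher of them lay from the controls, and the log2 fold change of −0.33 (95% CI −0.78 to 0.11, adjusted p = 0.932 by limma) became −0.56 when KO+OE replicate 2 was left out and −0.11 when KO+OE replicate 1 was, and −0.21 with a pseudocount of 5. FANCI was at 4.81 and 4.34 TPM in the controls and 3.88 and 3.47 TPM in KO+OE, again without overlap, with a log2 fold change of −0.25 (95% CI −0.58 to 0.08, adjusted p = 0.932 by limma) that became −0.14 with a pseudocount of 5. The ratio of FANCI to FANCD2 ranged from 0.543 to 0.878, and both extremes were KO+OE libraries. Neither gene is shown to differ between the groups.

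In mismatch repair MSH6 was the highest gene and MSH3 the lowest. Each pairs with the same common subunit, MSH6 for single mismatches and MSH3 for larger loops. MSH6 lay between 6.29 and 7.34 TPM with overlapping groups. MSH3 was at 0.49 and 0.52 TPM in the controls and 1.16 and 0.64 TPM in KO+OE, and the ratio of MSH3 to MSH6 was 0.0729 and 0.0827 in control and 0.176 and 0.0872 in KO+OE. This was the only one of 14 partner ratios without overlap between the groups, it rests mainly on KO+OE replicate 1, and no test was made. PMS1, a relative of PMS2, was at 1.45 and 2.54 TPM in the controls and at 1.42 ± 0.24 TPM in KO+OE (mean ± SD, n = 2). PMS2, the subunit that nicks the DNA, lay between 1.54 and 2.03 TPM, and its value is uncertain, because the table lists 11 near-copies of it, of which 6 averaged 1 TPM or more. PMS2P1 alone was between 22.00 and 24.90 TPM, and how reads shared by these copies were counted is not given in the sources used here. For the other repair genes the table held 16 pseudogenes and opposite-strand genes with a name derived from theirs. The highest of these had 0.24 TPM in any library, and 12 were at 0 in all 4.

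The listed RecQ helicases, which unwind recombination and replication structures, differed among themselves by level. Outside the listed genes, the RecQ helicases RECQL5 and RECQL had means of 16.4 and 0.875 TPM. RECQL4 lay between 35.82 and 37.91 TPM. BLM was at 1.24 ± 0.0141 TPM in control (mean ± SD, n = 2) and at 1.09 and 0.57 TPM in KO+OE, without overlap (log2 fold change −0.31, 95% CI −0.87 to 0.26, adjusted p = 0.942 by limma). The BLM value became −0.51 when KO+OE replicate 1 was left out, −0.10 when KO+OE replicate 2 was, −0.59 with a pseudocount of 0.1 and −0.099 with one of 5. WRN was at 0.88 and 0.46 TPM in the controls and 1.24 and 0.91 TPM in KO+OE, also without overlap, by 0.03 TPM.

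The 16 genes under 1 TPM entered no test of the main fit. Among them both KO+OE libraries were above both controls for MSH3, NBN and WRN and below for BARD1 and FANCM. Of the 6491 genes of the table under 1 TPM with a value above 0 in all 4 libraries, as these 16 had, 14.8% were above and 16.3% below in this way. When every gene with a value above 0 was fitted, 0 of these 16 had an unadjusted p under 0.05 by limma, and their lowest adjusted p was 0.873. Values are rounded to 2 decimals and come without counts, so no counting error was computed for them.

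**Figure D3:**
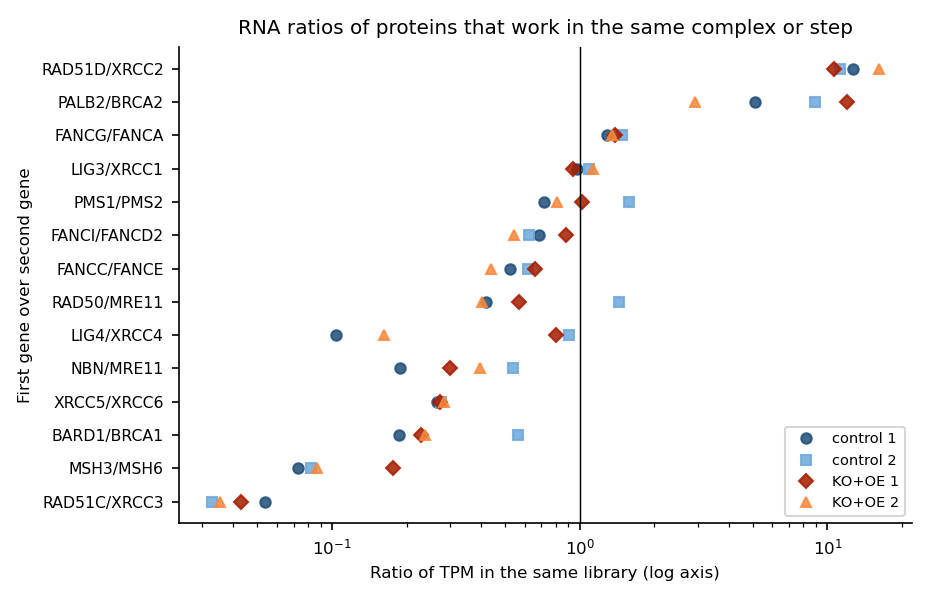
Ratio of the TPM of paired repair genes in the same library, on a log axis, for 14 pairs whose proteins share a complex or a step, with 1 point per library. Pairs of high genes hold their ratio, as XRCC5/XRCC6 at 0.266 to 0.282, pairs with a gene under 1 TPM scatter, and only MSH3/MSH6 has both KO+OE points to the right of both controls.

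The same test was read for other genes of these pathways. Of 74 further repair genes, 54 were tested, 0 had an adjusted p under 0.05 and 3 had an unadjusted p under 0.05, near the share of 5.33% of all genes tested, with 26 above and 28 below control and a median log2 fold change of −0.0045. The 3 were all lower in KO+OE, with an adjusted p of 0.928 each (limma). ATRIP, the partner that brings ATR to single-stranded DNA, was at 6.42 and 6.73 TPM in the controls and 5.09 and 4.79 TPM in KO+OE. SWSAP1, a paralogue-like recombination factor, was at 6.27 and 5.55 TPM in the controls and 4.43 and 2.68 TPM in KO+OE. FAAP20, a small subunit of the Fanconi core complex, was at 144.87 and 135.55 TPM in the controls and 128.59 and 127.14 TPM in KO+OE.

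The level of a repair gene went with the base composition of its transcript. Across the 44 genes the Spearman correlation of mean TPM with the GC content of the canonical transcript was 0.799, and in the single libraries it lay between 0.798 and 0.808. Across the 74 other repair genes it was 0.753, and across 14941 protein-coding genes with a value above 0 in all 4 libraries it was 0.343. These are correlations across genes, which share the same 4 libraries and are not independent replicates. With transcript length the correlation was −0.309 for the 44 genes, −0.535 for the 74 and −0.317 for the protein-coding genes. GC content of the coding part alone gave 0.738 and coding length −0.205.

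The median levels of the GC classes lay further apart for the repair genes than for protein-coding genes. The 14 repair genes with less than 40% GC had a median level of 0.34 TPM, and 2212 protein-coding genes of that class had a median of 0.96 TPM. Between 40 and 45% GC the median was 1.76 TPM for 13 repair genes and 1.90 TPM for 2881 protein-coding genes. Between 45 and 50% it was 8.22 TPM for 9 repair genes and 3.94 TPM for 2376 protein-coding genes, between 50 and 55% it was 10.1 TPM for 2 repair genes and 7.58 TPM for 2295 protein-coding genes, and from 55% upward it was 28.1 TPM for 6 repair genes and 10.3 TPM for 5177 protein-coding genes. The genes under 1 TPM had a median transcript GC content of 38.2%, with a range of 35.2 to 47.9%, and those at 10 TPM or more had a median of 53.0%, with a range of 42.5 to 65.3%. RAD52 was the low gene with the highest GC content, and XRCC5 the high gene with the lowest. Whether the library preparation takes a part in this relation was not tested.

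**Figure D4:**
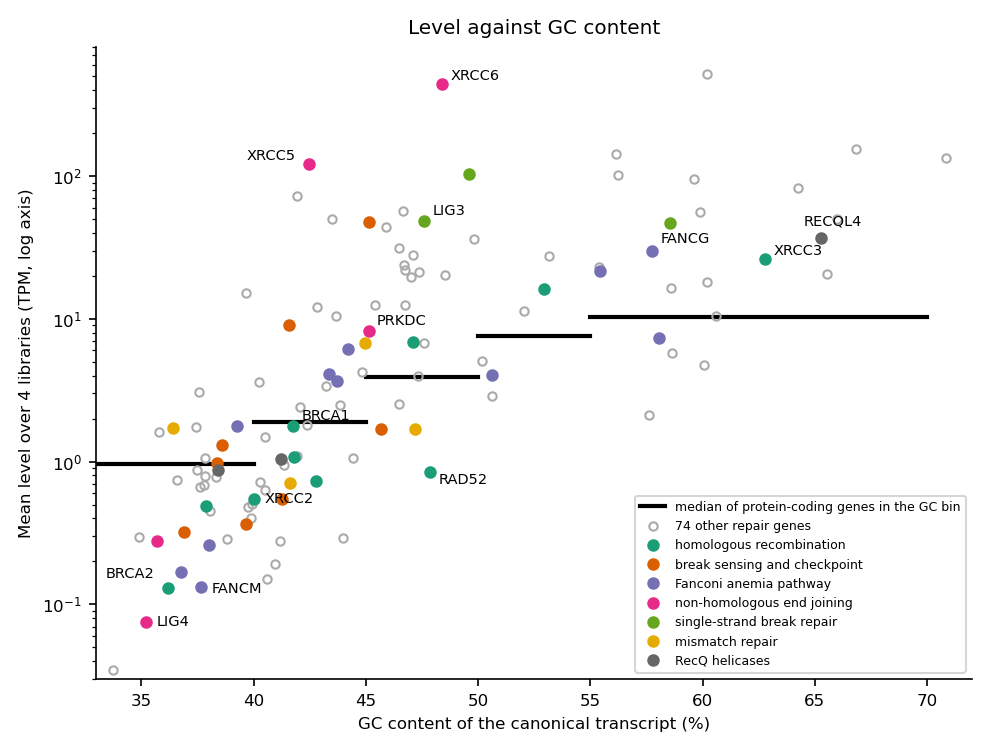
Mean level over the 4 libraries (TPM, log axis) against GC content of the canonical transcript (%) for the 44 repair genes (filled, by pathway) and 74 other repair genes (open), with black lines for the median of protein-coding genes in each GC class. The repair genes climb more steeply than the lines, from a median of 0.34 TPM under 40% GC to 28.1 TPM from 55% upward.

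Pairs of repair genes from the same family or pathway show this difference in the letters of their coding sequences. The stretches shown are the middle 120 bases of the coding sequence of the canonical GENCODE 44 transcript, read 5′ to 3′ on the strand of the gene, with G and C in capitals. Gene positions are RefSeq spans on GRCh38.p14, the same build as hg38. The ligases come first: LIG3, at 48.5 TPM (chr17:34980512-35010872, plus strand, coding bases 1453 to 1572, 50% GC), and LIG4, at 0.075 TPM (chr13:108207442-108218349, minus strand, coding bases 1306 to 1425, 38.3% GC). The recombinase paralogues follow: XRCC3, at 26.2 TPM (chr14:103697617-103715451, minus strand, coding bases 460 to 579, 60% GC), and XRCC2, at 0.55 TPM (chr7:152644776-152676141, minus strand, coding bases 361 to 480, 41.7% GC). The Fanconi core genes are last: FANCG, at 29.9 TPM (chr9:35073839-35079942, minus strand, coding bases 874 to 993, 52.5% GC), and FANCM, at 0.13 TPM (chr14:45135930-45200890, plus strand, coding bases 3013 to 3132, 40% GC). The pairs were chosen for their large difference in level and GC content, and in each the gene with the higher RNA level has more capitals. Among the 14 partner pairs of the ratios above, the gene with the higher mean level had the higher transcript GC content in 11 and the lower in 3, which were LIG3 and XRCC1, MRE11 and RAD50, and PMS1 and PMS2.
LIG3: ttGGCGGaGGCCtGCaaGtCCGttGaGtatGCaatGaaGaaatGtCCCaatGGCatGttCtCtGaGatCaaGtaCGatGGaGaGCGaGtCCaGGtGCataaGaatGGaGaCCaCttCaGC
LIG4: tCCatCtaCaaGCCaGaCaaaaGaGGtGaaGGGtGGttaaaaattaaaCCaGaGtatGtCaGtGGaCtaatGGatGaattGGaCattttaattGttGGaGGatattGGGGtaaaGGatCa
XRCC3: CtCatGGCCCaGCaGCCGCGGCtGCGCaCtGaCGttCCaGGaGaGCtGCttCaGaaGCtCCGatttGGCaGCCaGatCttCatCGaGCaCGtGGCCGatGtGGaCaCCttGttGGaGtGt
XRCC2: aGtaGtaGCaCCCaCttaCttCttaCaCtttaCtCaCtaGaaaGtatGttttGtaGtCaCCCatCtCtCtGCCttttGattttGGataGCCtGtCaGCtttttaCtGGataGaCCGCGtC
FANCG: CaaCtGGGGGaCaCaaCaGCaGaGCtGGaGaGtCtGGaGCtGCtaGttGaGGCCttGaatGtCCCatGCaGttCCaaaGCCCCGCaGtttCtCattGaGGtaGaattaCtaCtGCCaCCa
FANCM: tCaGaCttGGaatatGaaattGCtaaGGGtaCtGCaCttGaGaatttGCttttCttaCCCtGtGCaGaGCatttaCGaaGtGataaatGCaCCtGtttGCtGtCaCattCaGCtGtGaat

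Some of these genes start back to back with another gene, so that a single short stretch of DNA lies upstream of both. How often this occurs among all genes with a promoter window was not counted, so it is not shown to be a trait of repair genes. Of the 38 repair genes with a RefSeq promoter window, 18 had a neighbour on the opposite strand whose start lay within 1000 bases, in 19 pairs, and 17 of the neighbours were in the table. The neighbour was above the repair gene in 8 of the 17 pairs and 10-fold or more above it in 3, while 9 pairs were within 5-fold of each other, LIG4 and ABHD13 at 5-fold included. The largest gap of this kind was at PMS2 and AIMP2, a scaffold of the tRNA synthetase complex, whose starts lie 166 bases apart on chromosome 7: AIMP2 had a mean of 56.1 TPM and PMS2 of 1.68 TPM. At XRCC4 and TMEM167A, with starts 153 bases apart, the means were 0.28 and 4.24 TPM. In other pairs the repair gene was the higher one, as at XRCC6 and DESI1, 252 bases apart, with 441 and 17.1 TPM. BARD1 and SNHG31, 546 bases apart, differed by a slightly larger factor, but at means of only 0.49 and 0.018 TPM. LIG4 and ABHD13, 43 bases apart, were both low, at 0.075 and 0.38 TPM, and XRCC3 and ZFYVE21, 359 bases apart, were both high, at 26.2 and 36.8 TPM. The strandedness of the libraries is not given in the sources used here, so where such genes overlap at their starts, reads of one cannot be told apart from reads of the other.

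**Figure D5:**
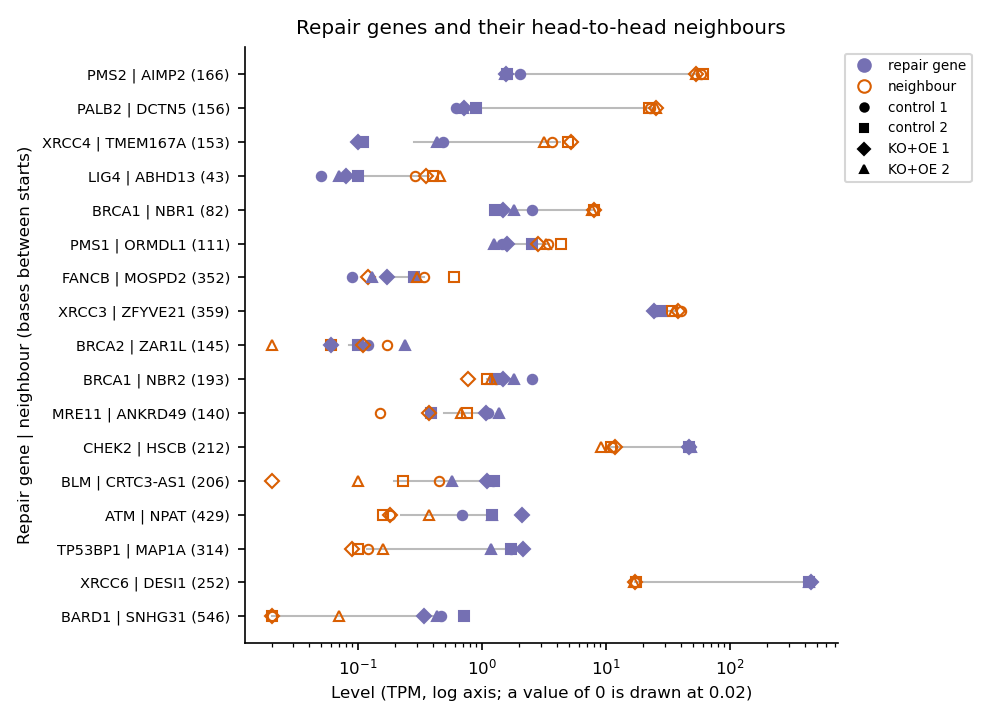
Level (TPM, log axis) of repair genes (filled) and of the neighbours that start head to head with them (open) in 17 pairs, 1 marker shape per library, with a grey line between the means and the bases between the starts in parentheses. At the top AIMP2 and DCTN5 stand far to the right of PMS2 and PALB2, and near the bottom XRCC6 stands far to the right of DESI1.

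PALB2 shares such a stretch with DCTN5, a dynactin subunit that the study followed as a target of CFIm25. Their starts lie 156 bases apart on chromosome 16. DCTN5 was at 22.69 and 22.03 TPM in the controls and 25.43 and 25.24 TPM in KO+OE, while PALB2 was at 0.61 and 0.89 TPM in the controls and 0.72 and 0.70 TPM in KO+OE. DCTN5 was higher in both KO+OE libraries, with a log2 fold change of 0.17 (95% CI 0.02 to 0.33), and did not pass the adjusted test (adjusted p = 0.928 by limma), and the PALB2 groups overlapped. AIMP2, opposite PMS2, was at 58.02 and 60.17 TPM in the controls and 52.72 and 53.55 TPM in KO+OE, for a log2 difference of −0.15 (95% CI −0.27 to −0.03) with the same adjusted p of 0.928. The stretch from the DCTN5 start to the PALB2 start, 157 bases with 66.9% GC, is shown because it carries the starts of a gene at 23.8 TPM and of a gene under 1 TPM. It is read on the minus strand of GRCh38.p14 at chr16:23641310-23641466, in the direction in which PALB2 is transcribed, from RefSeq. Capitals mark its CCAAT box, the only match to the motifs searched, which reads ATTGG on this strand at bases 131 to 135 of the stretch.
PALB2 and DCTN5: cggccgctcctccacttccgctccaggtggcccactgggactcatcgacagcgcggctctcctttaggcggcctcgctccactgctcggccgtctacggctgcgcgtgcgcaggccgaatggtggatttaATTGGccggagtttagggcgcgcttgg

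The promoter windows of the 38 repair genes, 250 bases before to 50 bases after the RefSeq start, were searched on both strands for 4 motifs known from growth and cell cycle genes. A gene could have more than 1 window and was counted once if any of its windows held the motif. The GC box, GGGCGG, was found for 31 genes (81.6%), beside 48.3% of all 27305 genes with a window and 79.0% of the 8850 of them tested here. The CCAAT box, CCAAT, was found for 21 genes (55.3%), beside 39.7% and 42.9%. E2F sites, searched as TTTGGCGC, TTTCCCGC, TTTCGCGC and TTTGCCGC, were found for 8 genes (21.1%), beside 3.99% and 6.73%. The 8 genes were FANCA, FANCC, FANCD2, MSH3, MSH6, PMS2, XRCC2 and XRCC6. The CHR element, searched as TTTGAA and TTCGAA, was found for 4 genes (10.5%), beside 19.5% and 14.1%. Letters of the E2F sites and the GC box may overlap. Among the repair genes, windows with an E2F site belonged both to XRCC6, the highest gene, and to XRCC2 and MSH3, which lay under 1 TPM. A match is a run of letters and was not tested for binding.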

How the data were processed

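Poly(A)-selected RNA of H9 cells was sequenced in 2 control and 2 KO+OE libraries, grouped by the sample titles. The authors deposited 1 table with a column per library and no unit in its header. The values are read as TPM, because the deposited columns hold decimals and sum to between 986853 and 987078. The submitters' processing notes name HISAT2, featureCounts, Subread, DESeq2 and hg38, without roles. The study states a p and fold threshold for calls of its own, made with DESeq2, which needs counts and was not used here. The table had 0 further columns with values of samples, and depth is unknown.

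Genes that averaged 1 TPM or more were fitted as log2(TPM + 1) with limma 3.58.1 (trend, group as the only term, two-sided) in R 4.3.3, with Benjamini-Hochberg adjustment over all 12319 genes. Alternatives changed the pseudocount, the filter, the scaling, the prior, a block and each library. Partner ratios, correlations, neighbours and motifs are descriptions without a test. Transcript GC content and length came from GENCODE 44 by Ensembl identifier, and starts and promoter windows from RefSeq (GRCh38.p14) by symbol. No promoter window was used for XRCC5, FANCI, RECQL4, PRKDC, WRN and NBN. Any of the 44 genes could be named. Other pathway genes were named where their unadjusted p by limma was under 0.05 or a statement on the listed genes turned on them. Neighbours and pseudogenes were added where a value turned on them. The genes and lists were chosen with earlier results of these data known.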

Additional observations from a re-analysis of the deposited data

How the results depend on the processing

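Under all 12 alternatives 0 repair genes had an adjusted p under 0.05 (limma), and the lowest adjusted p of any of them was 0.865. At an unadjusted p under 0.05 the count of repair genes ranged from 0 to 1 when 1 library was left out: it was 1, BLM, without KO+OE replicate 1 and 1, FANCD2, without KO+OE replicate 2, where the lone library is assumed to vary like the others. Over all genes, 1 passed the adjusted test. It became 0 when the pseudocount was 0.1, 0 when the pseudocount was 5, 0 when no gene was filtered out, 0 with a filter at a mean of 5 TPM and 0 with quantile normalization, where 670, 634, 1314, 412 and 649 genes had an unadjusted p under 0.05, and it ranged from 0 to 1 when 1 library was left out. The cause was not tested. The median log2 fold change of the repair genes, −0.043, lay between −0.050 and 0.0087 when 1 library was left out and between −0.049 and 0.0059 under the other alternatives, all within 0.077, the spread of this median between replicates.

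Of 325 fold changes of single repair genes under an alternative, 304 kept their direction and 21 changed sign. Of the 21, 18 came from leaving out 1 library, in 13 genes with log2 fold changes of −0.41 to 0.22 for BRCA1, −0.26 to 0.080 for CHEK1, −0.0086 to 0.037 for CHEK2, −0.21 to 0.18 for FANCC, −0.033 to 0.13 for FANCE, −0.30 to 0.17 for FANCL, −0.018 to 0.045 for PARP1, −0.15 to 0.011 for PRKDC, −0.22 to 0.096 for RAD51C, −0.046 to 0.36 for RAD51D, −0.32 to 0.21 for TP53BP1, −0.096 to 0.091 for XRCC3 and −0.019 to 0.031 for XRCC6. The other 3 were 0.010 for XRCC3 after rescaling by median ratios, 0.0089 for XRCC3 with quantile normalization and 0.0018 for FANCC with quantile normalization.

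With the replicate number as a block, 0 of all genes and 0 repair genes had an adjusted p under 0.05, and 673 genes had an unadjusted p under 0.05, against 656 without the block. The deviations of same-numbered libraries from their group means had a correlation of −0.049 across genes. With 2 libraries per group the second pair mirrors the first, so this value cannot show whether the numbers pair the libraries. Genes under 1 TPM are limited by the unknown depth.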
